A study of Mus musculus with 8 samples.

Results

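The genes described here build, sulfate, carry or edit glycosaminoglycans, and were compared between sorted CD249+ and CD249− cells of the mouse lung. The labels call both fractions fibroblasts, but both held RNA of other cell types, as given below. Members were taken by gene symbol: every gene of the table in the Ext and Extl, Ndst, Hs2st, Hs3st, Hs6st, Chst, Sulf, Has, Gpc and Sdc families. No measured value entered that rule, but the families were chosen with earlier results of these data known. The symbols gave 49 members among the 25509 mouse genes of the table. The libraries came from lungs of wild-type C57Bl6/J mice, numbered 2, 7, 8 and 10, with no transgene or treatment named in the labels. The animals' age and sex are not given in the sources used here. Lung cells without surface CD45, CD326 and CD31 (antigens of leukocytes, epithelium and endothelium) were sorted by surface CD249, the peptidase encoded by Enpep, and equal numbers of CD249+ and CD249− cells were taken from each lung. This gave 4 libraries of each fraction, 8 in all. Each library is bulk RNA of 1 sorted fraction of 1 mouse, so replicates are separate animals and the fractions of a lung form a pair.

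Glycosaminoglycans are long sugar chains, and most of them are built on core proteins, which together with their chains are called proteoglycans. Glypicans are attached to the outer face of the cell membrane by a lipid anchor, syndecans cross the membrane, and both carry mainly heparan sulfate. The EXT polymerases extend a heparan sulfate chain, the NDST enzymes begin its modification by exchanging N-acetyl for N-sulfate groups, and the 2-O-, 6-O- and 3-O-sulfotransferases then add sulfate at defined positions, which sets which growth factors, chemokines and clotting inhibitors the chain can bind. The SULF enzymes remove 6-O-sulfate from finished chains outside the cell. Chondroitin and dermatan sulfate chains are sulfated by members of the CHST family, other CHST enzymes sulfate glycoproteins or glycolipids, and hyaluronan is an unsulfated chain made without a core protein by the HAS synthases. In the lung, fibroblasts are a main source of matrix proteoglycans and hyaluronan.

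Promoter sequences are shown for 4 members to let a reader see the DNA ahead of a RefSeq start of genes that went opposite ways: Chst8, Gpc3 and Sdc4, which were higher in CD249+ cells, and Hs3st1, which was lower. Each line gives the 250 bases before a RefSeq start of the gene on GRCm38.p6, 5′ to 3′ on the gene's own strand. All 4 genes lie on the minus strand, with windows at chr7:34812712-34812961 (Chst8), chrX:52613975-52614224 (Gpc3), chr2:164443189-164443438 (Sdc4) and chr5:39644632-39644881 (Hs3st1). In the GENCODE annotation Sdc4 and Hs3st1 begin further upstream, at chr2:164443887 and chr5:39755475, so their windows lie inside the gene. The bases before those upstream starts were not examined. Capitals mark the GC box GGGCGG, the core of the site read by Sp/KLF factors, found on either strand (its reverse complement is CCGCCC).
Chst8: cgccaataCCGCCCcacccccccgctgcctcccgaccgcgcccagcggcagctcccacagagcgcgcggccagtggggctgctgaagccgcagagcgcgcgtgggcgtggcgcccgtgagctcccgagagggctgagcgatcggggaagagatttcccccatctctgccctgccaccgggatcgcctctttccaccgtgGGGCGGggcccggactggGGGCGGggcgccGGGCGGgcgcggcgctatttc
Gpc3: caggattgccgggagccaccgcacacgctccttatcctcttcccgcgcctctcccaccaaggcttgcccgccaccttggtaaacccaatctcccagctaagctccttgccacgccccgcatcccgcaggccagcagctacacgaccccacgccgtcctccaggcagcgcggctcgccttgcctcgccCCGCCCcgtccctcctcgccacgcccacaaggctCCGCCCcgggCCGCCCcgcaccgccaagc
Sdc4: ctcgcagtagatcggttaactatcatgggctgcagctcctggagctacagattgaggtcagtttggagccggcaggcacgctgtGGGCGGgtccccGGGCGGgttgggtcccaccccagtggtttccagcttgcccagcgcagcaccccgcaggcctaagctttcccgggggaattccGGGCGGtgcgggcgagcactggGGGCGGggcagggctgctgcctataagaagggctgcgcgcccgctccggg
Hs3st1: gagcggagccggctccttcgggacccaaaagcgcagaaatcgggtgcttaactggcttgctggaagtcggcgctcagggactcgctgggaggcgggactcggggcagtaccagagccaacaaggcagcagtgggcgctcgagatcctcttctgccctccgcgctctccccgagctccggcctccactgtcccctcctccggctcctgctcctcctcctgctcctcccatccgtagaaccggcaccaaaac
The Hs3st1 window holds no GC box, and the other 3 windows do. RefSeq promoter windows were found for 37 of the 49 members, 42 windows in all. Of the 32 windows of members with enough counts to test, 71.9% held a GC box in these 250 bases, against 32.7% of 32851 promoter windows of the same length over all genes. That background includes genes without enough counts to test, and windows of all tested genes were not compared. The share was 76.9% of 13 windows for the members that were higher in CD249+ cells, and 2 of 5 windows (40%) for those that were lower, those of Chst11 and Sdc3. The 13 windows belong to 12 genes, and Ext1, Extl3, Gpc1 and Sdc2, also called higher, had no window. The members' windows were also richer in G and C, with a median of 65.2% against 52.4% over all windows, and the GC box is itself made of those bases. The TATA box TATAAA was present in 1 tested member's window, that of Sulf2 (3.12% of windows, against 12.4% overall). The forkhead motif GTAAACA, the Gli motif GACCACCC and the T-box motif GGTGTGA were looked for on both strands and were in no tested member's window; they are in 3.17%, 0.703% and 3.33% of all windows. A match is a string of letters, not a measured binding site.

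The libraries held 23011383 to 31906414 estimated counts, with no detectable difference in depth between fractions (2-sided exact permutation test, p = 0.429, n = 4 and 4). The sorting gene went with its label: Enpep stood at 8.98 ± 5.62 CPM (counts scaled to the library's size, mean ± SD, n = 4) in CD249− and 241 ± 64.8 CPM in CD249+ cells. Of 14524 genes with enough counts to test, 4468 (30.8%) passed an adjusted p of 0.05 in edgeR's quasi-likelihood test, 2455 higher in CD249+ cells (16.9%) and 2013 lower (13.9%). Scaling by library size alone moved that split to 2106 higher and 2689 lower. These genes are called higher or lower below. That test had the fraction as its only term and so did not use the pairing by mouse. Calls that changed with the mouse as a block in the fit are given beside it. Adjusted p values come from that test unless another fit is named, with Benjamini-Hochberg adjustment over all genes tested. Both fractions held RNA of other cell types in unequal amounts. The 15 endothelial markers summed to 18200 to 25470 CPM in CD249− and 6038 to 11780 CPM in CD249+ libraries, and all 15 were called lower, among them Pecam1, the gene of the excluded antigen CD31, at 1667 ± 248 and 611 ± 239 CPM. All 6 platelet markers (116.9 to 639.4 CPM in sum, and 24.01 to 74.06 CPM in CD249+ libraries) and 4 of 5 mesothelial markers (49.05 to 171.9 and 8.837 to 25.12 CPM) were also lower, as were 2 of 10 leukocyte markers (1521 to 2847 and 1247 to 3476 CPM), or 7 of 10 with the mouse as a block in the fit. The 8 core collagen genes were all called higher, from 4225 to 10790 CPM in sum to 14070 to 24860 CPM, as were 9 of 9 alveolar fibroblast, 5 of 6 smooth muscle (6 with the block) and 7 of 8 pericyte markers. None of the markers of these lists was at 0 in all libraries. How far these differences in content account for the members' differences was not tested, and in bulk RNA fewer cells of a type and less RNA per cell cannot be told apart.

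Of the 49 members, 37 had enough counts to test. Among them 21 were called (56.8%, beside 30.8% of all genes tested): 16 were higher in CD249+ cells (43.2%, beside 16.9% of all genes) and 5 lower (13.5%, beside 13.9%). Of those called higher, Chst8, Chst5, Hs6st3 and Hs3st3a1 had enough counts to test only through their CD249+ libraries. Chst4, called lower, had enough only through its CD249− libraries. For these genes entry to the test and the direction called are linked. All 16 were higher, and all 5 lower, in CD249+ cells of each of the 4 mice. A change of at least 2-fold was called for 15 members (40.5%, beside 15.6% of all genes), 12 higher and 3 lower. The CPM of the fractions did not overlap for 18 members in the higher direction and 3 in the lower, beside 17.8% and 15.8% of all genes. The median log2 fold change of the tested members was 0.62, and that of all genes −0.02. With the mouse as a block in the fit, 25 members were called, 19 higher and 6 lower (36.5% of all genes are called in that fit). Of the 12 untested members, Hs3st2, Hs3st5 and Gpc5 had no count in any library, and each of the others, Extl1, Ndst3, Ndst4, Hs3st4, Hs3st6, Hs6st2, Has3, Chst13 and Chst9, had at most 136 counts over all libraries.

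**Figure D1:**
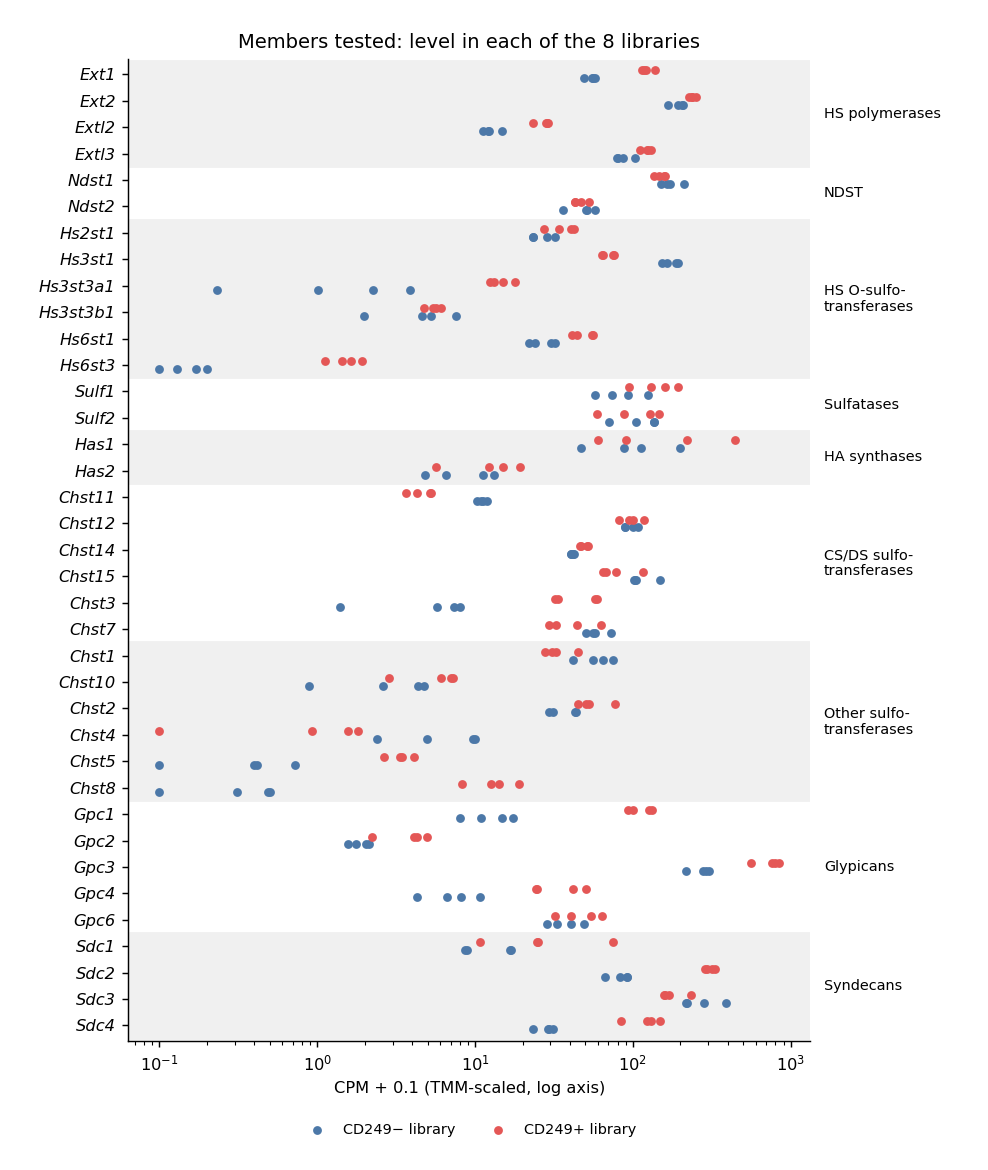
Level of each of the 37 tested members in each library, in CPM plus 0.1 on a log axis (1 point a library; blue, CD249−; red, CD249+), grouped by role. The points of the fractions stand apart for Gpc1, Sdc2, Sdc4, Ext1 and Hs3st1, and overlap for Ndst1, Sulf2 and Chst12.

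The tested heparan sulfate polymerases were all higher in CD249+ cells: 4 of 4 genes were called higher, beside 16.9% of all genes. Their log2 fold changes were from 0.30 to 1.17. Summed per kb of exon, their level was 50.98 ± 3.43 CPM per kb in CD249− and 75.8 ± 3.80 CPM per kb in CD249+ cells. Ext1 (ENSMUSG00000061731, chr15:53064038-53346159 on GRCm38), the subunit that with EXT2 forms the polymerase complex, stood at 57.3, 55.1, 56.1 and 48.9 CPM in CD249− libraries of mice 2, 7, 8 and 10 and at 113.9, 138, 121 and 117 CPM in their CD249+ cells. Every CD249+ library lay above every CD249− library, and the log2 fold change was 1.17 (SE 0.10, adjusted p = 2.61e-05). Extl2, which encodes a related transferase that acts on the linker region, rose from between 11.2 and 14.8 CPM to between 23.2 and 28.7 CPM (log2 fold change 1.11, SE 0.14, adjusted p = 0.000339). Extl3, whose product adds the first N-acetylglucosamine of a heparan sulfate chain, stood at 87.0 ± 11.04 CPM in CD249− and 122 ± 8.22 CPM in CD249+ cells (log2 fold change 0.49, adjusted p = 0.00672). Without mouse 7 its adjusted p was 0.0505 and without mouse 8 it was 0.0597. Ext2, the partner of EXT1 and the most abundant of the group per kb, differed least. It stood at 203, 167, 206 and 193 CPM in CD249− and 238, 249, 235 and 227 CPM in CD249+ cells, a log2 fold change of 0.30 with an adjusted p of 0.0353. That call was lost in 12 of 21 alternative settings, with library size alone as scaling among them (adjusted p = 0.122), while the direction stayed the same in all of them. Leaving out any 1 of these CD249− libraries (mice 7 and 10), CD249+ libraries (mice 7, 8 and 10) or whole mice (7, 8 and 10) ended it as well, with adjusted p up to 0.169. Within the group the share of Ext1 in the length-scaled level went from 13.2% ± 1.01 to 20% ± 0.866, and that of Ext2 from 51.5% ± 2.69 to 42.8% ± 1.76 (SD, n = 4). The fifth gene, Extl1, had 16 counts in CD249− and 120 in CD249+ libraries, nearly all of the latter from mice 7 and 8.

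The N-deacetylase/N-sulfotransferases did not follow the polymerases. Ndst1, the more abundant of the pair that was measured, stood at 174 ± 25.9 CPM in CD249− and 150 ± 10.6 CPM in CD249+ cells (log2 fold change −0.22, SE 0.12, adjusted p = 0.186). Ndst2 stood at 48.8 ± 9.27 and 46.2 ± 4.67 CPM (log2 fold change −0.08, adjusted p = 0.728). For both genes the libraries of the fractions overlapped. Ndst3 had 17 and 2 counts over the 4 libraries of each fraction, and Ndst4 had 6 and 22.

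The heparan sulfate O-sulfotransferases moved in both directions: 3 of 6 tested genes were higher and 1 was lower, beside 16.9% and 13.9% of all genes. Their summed length-scaled level fell from 87.56 ± 8.29 to 50.18 ± 2.13 CPM per kb. The fall was carried by Hs3st1 (ENSMUSG00000051022, chr5:39613935-39755475), the 3-O-sulfotransferase known for making the antithrombin-binding site of heparan sulfate. It stood at 165, 191, 153 and 186 CPM in CD249− libraries of mice 2, 7, 8 and 10 and at 75.7, 64.5, 74.7 and 63.6 CPM in CD249+ cells. The lowest CD249− library was above the highest CD249+ library by a wide margin, and the log2 fold change was −1.32 (SE 0.11, adjusted p = 2.41e-05), 2.495-fold lower in CD249+ cells by the means. Its share of the group's length-scaled level was 88.9% ± 1.51 in CD249− and 62.2% ± 4.08 in CD249+ cells. The median log2 fold change of the 15 endothelial markers, all lower, was −1.45, and the part of endothelial RNA in the Hs3st1 values was not tested. The called members on the other side were expressed at lower levels. Hs6st1, a 6-O-sulfotransferase, stood at 23.7, 30.1, 21.7 and 31.8 CPM in CD249− and 44.2, 41.2, 55.2 and 55.8 CPM in CD249+ cells. The libraries did not overlap, the log2 fold change was 0.87 (SE 0.16, adjusted p = 0.00254), and its share of the group went from 5.50% ± 0.509 to 17.6% ± 2.35.

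Hs3st3a1, a 3-O-sulfotransferase whose modified chains serve as an entry receptor for herpes simplex virus, was scarce in CD249− cells, at 0.133, 0.911, 3.75 and 2.16 CPM, and reached 13.04, 17.8, 12.3 and 14.97 CPM in CD249+ cells (log2 fold change 3.07, SE 0.69, adjusted p = 0.00766). The CD249− values differed between mice by more than the CD249+ values did, and without mouse 7 the adjusted p was 0.0590. Without the CD249− library of mouse 8, the highest of its fraction, the log2 fold change was 3.75, and without both libraries of that mouse it was 3.82. Hs3st3b1, whose product is closely related and whose gene lies on the same chromosome, was at 4.75 ± 2.29 and 5.34 ± 0.558 CPM (log2 fold change 0.17, adjusted p = 0.774). Reads shared by the pair are divided between them by estimation, so their values are uncertain, and 1295 bases of Hs3st3a1 exon overlap the opposite-strand gene F930015N05Rik. Hs6st3 had only 6 counts in the CD249− libraries and 167 in the CD249+ libraries, 0.0996, 0.0700, 0 and 0.0300 CPM beside 1.81, 1.03, 1.34 and 1.54 CPM. It was called higher with a log2 fold change of 4.70 (SE 0.82, adjusted p = 0.00198), a value that rests on few counts. The remaining 6-O-sulfotransferase, Hs6st2, went the opposite way below the count needed for the test: 77 counts, 8 to 32 in each CD249− library, and 0 in the 4 CD249+ libraries. With 3 counts over the group taken as the limit that 0 allows (0.0258 CPM), the pooled counts of Hs6st2 were at least 25.7-fold lower in CD249+ cells. That bound leaves out the variation between mice and was not tested. Hs2st1, the only 2-O-sulfotransferase of heparan sulfate, was higher in CD249+ cells of 4 of 4 mice, at 26.7 ± 4.37 and 36.0 ± 6.76 CPM, without passing the test (log2 fold change 0.43, SE 0.17, adjusted p = 0.0797).

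The extracellular 6-O-sulfatases had no call without the mouse as a block, and Sulf1 was called higher with it. Sulf1 stood at 57.2, 125, 73.8 and 93.3 CPM in CD249− and 94.1, 159, 193 and 131 CPM in CD249+ libraries of mice 2, 7, 8 and 10. The fractions overlapped between mice, while the CD249+ library was the higher one in each mouse. The log2 fold change was 0.72 (SE 0.26) with an adjusted p of 0.0633, and of 0.00722 with the mouse as a block. Sulf2, the more abundant of the sulfatases per kb, stood at 112 ± 31.0 and 105 ± 39.2 CPM, with a log2 fold change of −0.09 (SE 0.29, adjusted p = 0.851) and 2 mice in each direction.

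Among the hyaluronan synthases no gene was called without the block either, though Has1 was called higher with it. The spread between mice was large. Has1 took 91.0% ± 3.997 of the group's length-scaled level in CD249− cells and 91.7% ± 3.51 in CD249+ cells. It stood at 46.5, 112, 200 and 87.5 CPM in CD249− and 60.4, 221, 444 and 89.6 CPM in CD249+ libraries of mice 2, 7, 8 and 10. Mice 7 and 8 were highest in both fractions, and the difference within mice 2 and 10 was small. The log2 fold change was 0.87 (SE 0.61, adjusted p = 0.317), or 0.15 without the CD249+ library of mouse 8, and with the mouse as a block the adjusted p was 0.0211. The same mice were also high in haemoglobin RNA: Hbb-bs stood at 160 and 162 CPM in the CD249− libraries of mice 7 and 8 and at 7.44 and 3.24 CPM in those of mice 2 and 10, and the 5 red cell markers summed to 15.71 to 511.2 CPM in CD249− and 12.09 to 374 CPM in CD249+ libraries. None of the 5 was called without the block, and with it 3 were called lower: Hbb-bs (adjusted p = 0.0369), Hba-a1 (0.00269) and Hba-a2 (0.0173). The part of this in the Has1 values was not tested. Has2 stood at 8.83 ± 3.94 and 12.9 ± 5.70 CPM (log2 fold change 0.55, adjusted p = 0.350), and Has3 had 39 and 26 counts over the libraries of each fraction.

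The chondroitin and dermatan sulfotransferases summed to 107.2 ± 5.62 CPM per kb in CD249− and 104.2 ± 8.07 CPM per kb in CD249+ cells. Of 6 tested genes 1 was higher, 1 was lower and 4 had no call, beside 16.9% higher and 13.9% lower of all genes. Chst3 (ENSMUSG00000057337, chr10:60181532-60219260), a chondroitin 6-O-sulfotransferase, stood at 1.295, 7.25, 7.97 and 5.67 CPM in CD249− and 32.1, 59.0, 33.6 and 57.6 CPM in CD249+ cells. Every CD249+ library was several times above the highest CD249− library (log2 fold change 3.04, SE 0.47, adjusted p = 0.00103). Chst11, a chondroitin 4-O-sulfotransferase, went the other way, from 11.2, 10.2, 10.8 and 11.8 CPM to 5.10, 4.18, 3.57 and 5.17 CPM, again without overlap (log2 fold change −1.29, SE 0.21, adjusted p = 0.00128). The part of endothelial RNA in the Chst11 values was not tested. Chst12, the 4-O-sulfotransferase with the highest level per kb of the group, was at 96.6 ± 8.99 and 98.5 ± 15.1 CPM (log2 fold change 0.03, adjusted p = 0.890). Chst7, the other chondroitin 6-O-sulfotransferase, stood at 58.9 ± 9.64 and 42.1 ± 15.2 CPM and was lower in CD249+ cells of 4 of 4 mice (log2 fold change −0.49, adjusted p = 0.143, and 0.0236 with the mouse as a block). Thus Chst3 and Chst7, which encode enzymes for the same position of the sugar, had estimates of opposite sign, and per kb Chst7 remained the more abundant in both fractions (26.7 and 19.1 against 0.853 and 7.01 CPM per kb). Chst15, which adds a second sulfate to 4-sulfated chondroitin, stood at 147, 103, 102 and 104 CPM in CD249− and 116, 64.6, 67.3 and 78.1 CPM in CD249+ cells. Mouse 2 was highest in both fractions, the fractions overlapped only through it, and the log2 fold change of −0.49 had an adjusted p of 0.0952, or 0.00192 with the mouse as a block. Chst14, the dermatan 4-O-sulfotransferase, was at 41.1 ± 0.815 and 49.0 ± 2.81 CPM without overlap, just outside the threshold (log2 fold change 0.25, adjusted p = 0.0514).

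Among the other carbohydrate sulfotransferases 3 of 6 tested genes were higher and 2 lower, beside 16.9% and 13.9% of all genes. Chst8 (ENSMUSG00000060402, chr7:34674468-34812711), which sulfates N-acetylgalactosamine on glycoprotein hormones, had the highest log2 fold change of the tested members. Only its CD249+ libraries gave it enough counts to test. It stood at 0.398, 0.385, 0 and 0.210 CPM in CD249− and 14.0, 12.6, 8.21 and 18.8 CPM in CD249+ cells, 30 counts in all beside 1562. The gene was near its detection limit in every CD249− library and well above it in every CD249+ library (log2 fold change 5.70, SE 0.63, adjusted p = 0.000152). Chst5, an N-acetylglucosamine 6-O-sulfotransferase, was also scarce in CD249− cells, at 0.299, 0.315, 0.626 and 0 CPM, and stood at 3.99, 3.22, 3.36 and 2.53 CPM in CD249+ cells (log2 fold change 3.41, SE 0.87, adjusted p = 0.0140). Its adjusted p was 0.0569 without mouse 2 and 0.0703 without mouse 7. Chst4, a related enzyme known for making selectin ligands in lymph node vessels, moved in the opposite direction, from 2.29, 9.67, 9.89 and 4.83 CPM to 0.823, 0, 1.70 and 1.47 CPM. The fractions did not overlap, but the call (log2 fold change −2.73, SE 0.91, adjusted p = 0.0460) was lost in 14 of 20 alternative settings, the fit with the mouse as a block among them (adjusted p = 0.0574). Without mouse 7 the log2 fold change was −2.09 (adjusted p = 0.0519). Leaving out any whole mouse, the CD249− cells of mouse 7, 8 or 10 or the CD249+ cells of mouse 2, 8 or 10 likewise ended the call (adjusted p up to 0.13). Chst1, a keratan sulfate galactose 6-O-sulfotransferase with 71.8% ± 6.21 of the group's length-scaled level in CD249− and 50.4% ± 3.01 in CD249+ cells, stood at 74.6, 64.5, 41.6 and 55.5 CPM and at 44.5, 27.5, 32.4 and 30.8 CPM. The lowest CD249− library lay under the highest CD249+ library, and Chst1 was called lower (log2 fold change −0.81, SE 0.20, adjusted p = 0.0125), though not without mouse 7 (adjusted p = 0.0864) or mouse 10 (adjusted p = 0.0592). Chst2, another N-acetylglucosamine 6-O-sulfotransferase, was higher at 36.5 ± 7.49 and 56.1 ± 14.1 CPM (log2 fold change 0.62, adjusted p = 0.0368), a call lost in 11 of 21 alternative settings. Those settings include leaving out any whole mouse, the CD249− cells of mouse 7 or 8 and the CD249+ cells of mouse 2, 7 or 10 (adjusted p up to 0.133). Chst10, which makes the HNK-1 carbohydrate epitope, stood at 3.05 ± 1.76 and 5.71 ± 2.03 CPM (log2 fold change 0.90, adjusted p = 0.230).

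**Figure D2:**
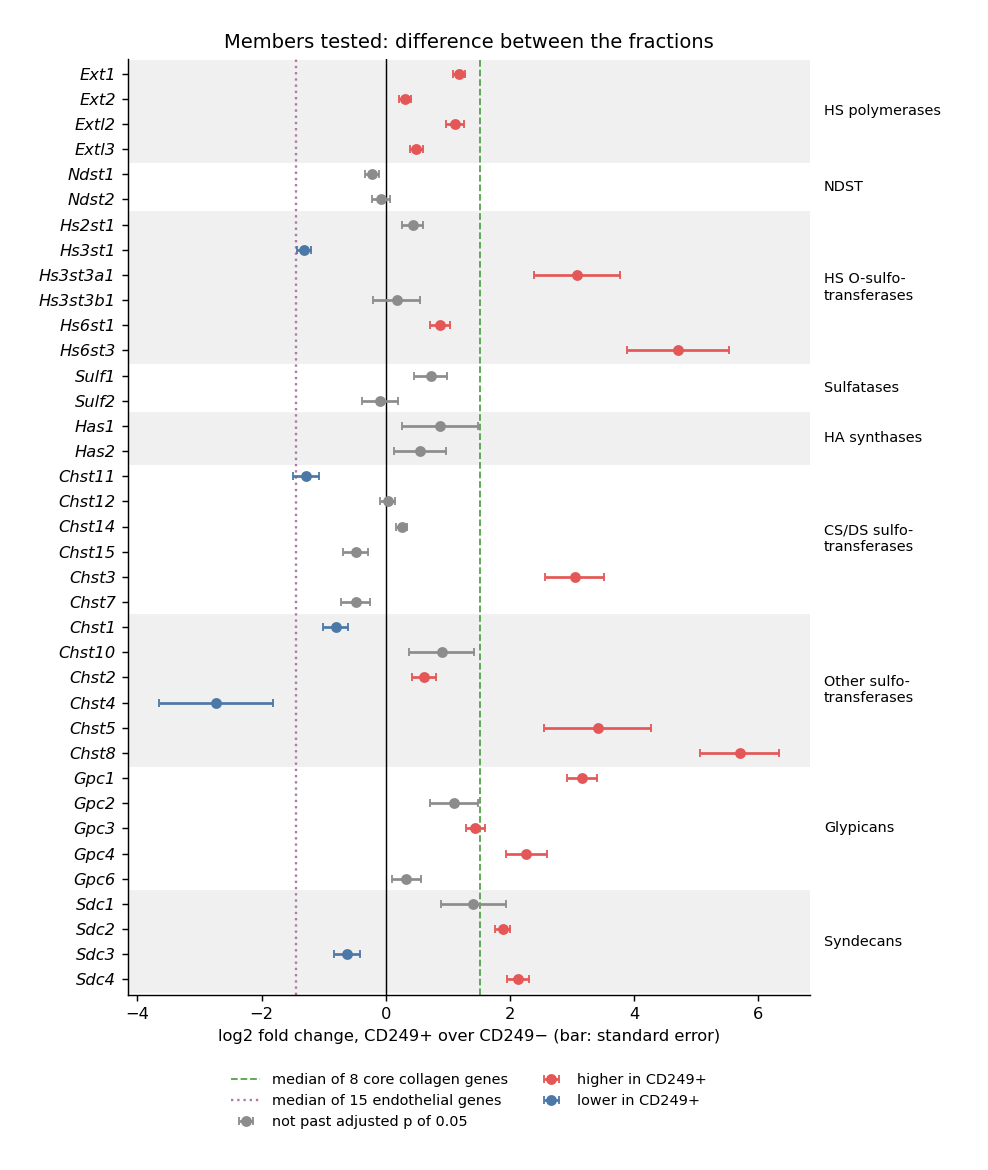
Log2 fold change of CD249+ over CD249− cells for the 37 tested members by role, with standard errors (red, called higher; blue, called lower; grey, no call). The dashed line is the median of the 8 core collagen genes (1.52) and the dotted line that of the 15 endothelial markers (−1.45); Chst8 at 5.70 and Hs6st3 at 4.70 lie furthest to the right, Chst4 at −2.73 and Hs3st1 at −1.32 furthest to the left.

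Glypican transcripts were higher in CD249+ cells as a group, with 3 of 5 tested genes called higher and none lower, beside 16.9% and 13.9% of all genes. The summed length-scaled level was 112.7 ± 16.4 CPM per kb in CD249− and 318.2 ± 52.2 CPM per kb in CD249+ cells. Most of it was Gpc3 (ENSMUSG00000055653, chrX:52272426-52613950), a glypican known for binding Hedgehog and Wnt ligands and for the overgrowth syndrome that follows its loss. Gpc3 stood at 216, 277, 292 and 304 CPM in CD249− libraries of mice 2, 7, 8 and 10 and at 561, 796, 844 and 756 CPM in CD249+ cells. Each CD249+ library was above all CD249− libraries, mouse 2 was lowest in both fractions, and the log2 fold change was 1.44 (SE 0.16, adjusted p = 0.000144). Its share of the glypican level was 89.8% ± 1.11 and 86.3% ± 1.53. The change in proportion was steepest for Gpc1 (ENSMUSG00000034220, chr1:92831645-92860779), a glypican known as a low-affinity co-receptor for fibroblast growth factors. It stood at 7.97, 14.8, 17.2 and 10.7 CPM in CD249− and 100.4, 126, 93.1 and 132 CPM in CD249+ cells. The lowest CD249+ library was several times the highest CD249− library, the means differed 8.90-fold, and the log2 fold change was 3.16 (SE 0.24, adjusted p = 1.60e-05). Gpc4, the neighbour of Gpc3 on the X chromosome (chrX:52053021-52165252), stood at 6.51, 8.06, 4.17 and 10.6 CPM and at 24.7, 50.6, 41.8 and 24.4 CPM, again without overlap (log2 fold change 2.26, SE 0.33, adjusted p = 0.000722). Gpc6 was at 37.7 ± 8.83 and 47.5 ± 14.0 CPM with overlapping libraries (log2 fold change 0.33, adjusted p = 0.312), so its share of the glypican level went from 5.19% ± 0.700 to 2.30% ± 0.390. Gpc2, a glypican of developing neurons, was low in both fractions, at 1.77 ± 0.261 and 3.78 ± 1.16 CPM (log2 fold change 1.09, adjusted p = 0.0573), and 2376 bases of its exons are shared with the same-strand gene Gm43720. Exons of Gpc1 overlap those of Ankmy1 on the other strand by 977 bases, as those of Hs6st1, Chst15 and Sdc3 overlap antisense genes by 447, 1206 and 415 bases, and reads of such stretches cannot be assigned to a strand here.

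The syndecans exchanged their leading member. Summed per kb, syndecan transcripts stood at 84.18 ± 9.85 CPM per kb in CD249− and 173.6 ± 16.8 CPM per kb in CD249+ cells. Of 4 genes 2 were called higher and 1 lower, beside 16.9% and 13.9% of all genes. Sdc3, known best from the nervous system and from satellite cells of muscle, was the leading syndecan of CD249− cells, with 54.2% ± 9.91 of the length-scaled level, and had 17.5% ± 4.92 in CD249+ cells. Sdc2 (ENSMUSG00000022261, chr15:32920723-33034935), the syndecan typical of mesenchymal cells, had 28.5% ± 6.11 of that level in CD249− and 50.3% ± 3.39 in CD249+ cells. For each of these genes no CD249− share overlapped a CD249+ share, with n = 4 in each fraction. Sdc2 stood at 66.0, 92.2, 82.7 and 92.1 CPM in CD249− libraries of mice 2, 7, 8 and 10 and at 287, 329, 294 and 317 CPM in CD249+ cells. All CD249+ libraries lay close together and far above the CD249− libraries (log2 fold change 1.88, SE 0.12, adjusted p = 7.20e-06), and no other member had a lower adjusted p. Sdc4 (ENSMUSG00000017009, chr2:164424247-164443887), a syndecan of focal adhesions, stood at 23.1, 31.0, 28.8 and 29.1 CPM in CD249− and 84.1, 124, 131 and 149 CPM in CD249+ cells. The fractions did not overlap, and the log2 fold change was 2.12 (SE 0.18, adjusted p = 2.62e-05). Sdc3 itself stood at 391, 219, 217 and 281 CPM in CD249− and 232, 157, 160 and 168 CPM in CD249+ cells. Mouse 2 was highest in both fractions, and its CD249+ library lay above 2 of the CD249− libraries. Sdc3 was called lower (log2 fold change −0.63, SE 0.21, adjusted p = 0.0435), a call that 9 of 21 alternative settings lost. Among them were the fits without the CD249− library of mouse 2 (log2 fold change −0.41, adjusted p = 0.0974) or 10, and those leaving out CD249+ cells of mouse 7, 8 or 10 or both fractions of 1 of these mice, with adjusted p values up to 0.162. With the mouse as a block the adjusted p was 0.000657.

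Sdc1, the syndecan typical of epithelium and plasma cells, stood at 8.47, 16.5, 8.84 and 16.9 CPM in CD249− and 10.6, 24.6, 24.8 and 74.7 CPM in CD249+ libraries of mice 2, 7, 8 and 10. The CD249+ library of mouse 10 was far above the other 3, and the fractions overlapped. The log2 fold change was 1.41 (SE 0.52, adjusted p = 0.0673), 0.66 with an adjusted p of 0.230 without that library, and its adjusted p with the mouse as a block was 0.0163. The same library held the most epithelial RNA: Sftpc, the surfactant protein C gene of alveolar type 2 cells, stood there at 7551 CPM, beside 320, 483 and 781 CPM in the other CD249+ libraries. The 8 epithelial markers summed to 94.07 to 529.6 CPM in CD249− and 359.1 to 8238 CPM in CD249+ libraries, and 2 of them were called higher, or 4 with the block, where Cdh1 (adjusted p = 0.0369) and Cldn18 (0.0265) joined Sftpc and Sftpb. What part the epithelial RNA has in the Sdc1 values was not tested.

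**Figure D3:**
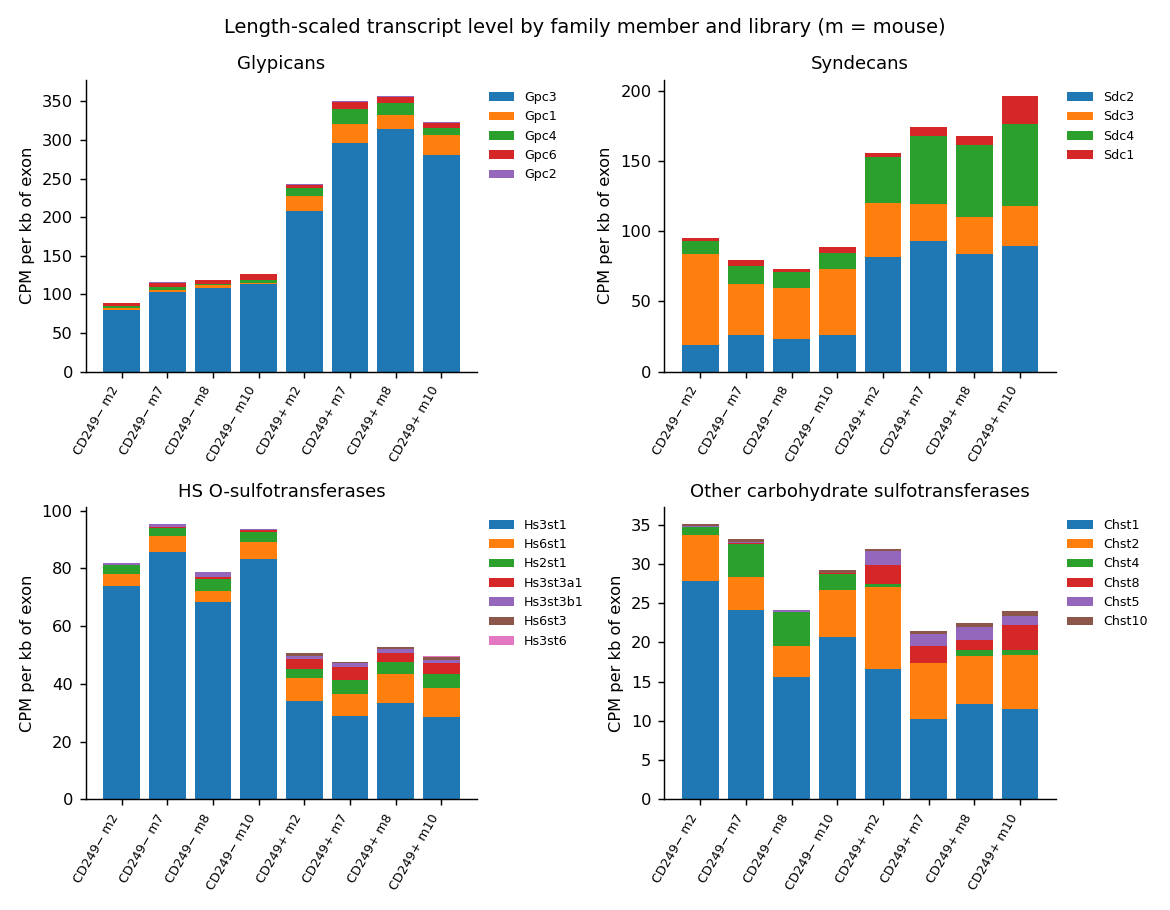
Length-scaled level (CPM per kb of exon) of the more abundant members of 4 families in each library, stacked by gene; bars start at 0 and m is the mouse. Gpc3 fills most of the glypican bars in both fractions, Sdc3 the largest part of the syndecan bars of CD249− cells and Sdc2 that of CD249+ cells, and the Hs3st1 part of the O-sulfotransferase bars shrinks from 88.9% to 62.2% on average.

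Taking the mouse into account changed the call of 6 members and of no other tested member. Sulf1, Has1 and Sdc1 were then called higher, Chst7 and Chst15 lower, and Chst4 was no longer called. In all 6 the direction was the same in 4 of 4 mice while the levels of the mice differed.

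**Figure D4:**
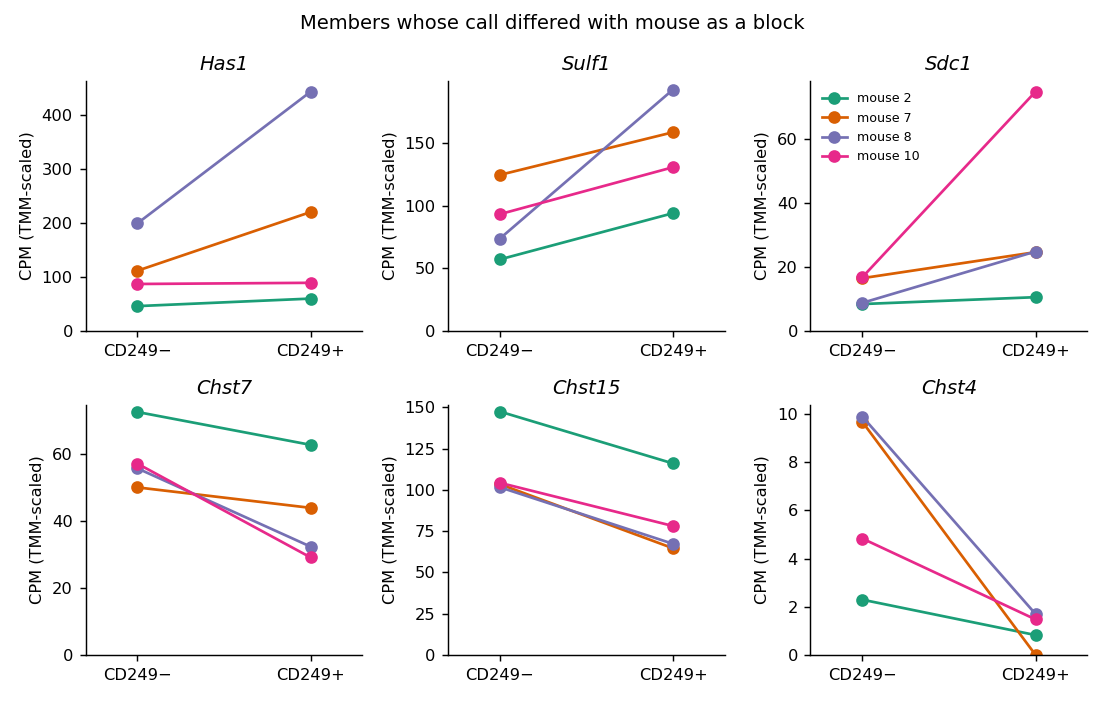
CPM of the 6 members whose call changed when the mouse was a block in the fit, each line joining the CD249− and CD249+ libraries of 1 mouse. All lines of Has1, Sulf1 and Sdc1 go up, that of mouse 10 for Has1 from 87.5 to 89.6 CPM, and all lines of Chst7, Chst15 and Chst4 go down.

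Relative to the collagens of the same library, few members stood higher in CD249+ cells without overlap of the fractions. The 8 core collagen genes (Col1a1, Col1a2, Col3a1, Col5a1, Col5a2, Col6a1, Col6a2 and Col6a3) had a mean log2 fold change of 1.79. With each gene's log2(CPM + 0.1) taken relative to their mean in the library, 2 tested members stood higher in CD249+ cells without overlap of the fractions (5.41%, beside 1.98% of all genes tested): Chst8 by 3.63 and Gpc1 by 1.36 on the log2 scale. Leaving out 1 mouse gave 3 to 5 such members, and the share of all genes was then 2.37% to 2.99%. Lower without overlap were 19 members (51.4%, beside 76% of all genes), among them all 5 called lower, Hs3st1 by −3.14 and Sdc3 by −2.43, and also Ext2 and Extl3 by −1.52 and −1.33, which were higher in CPM. Hs3st3a1 (1.77), Hs6st3 (1.55), Chst5 (1.505) and Chst3 (1.40) had larger differences than Gpc1, but their fractions overlapped on this scale. For Sdc2, Sdc4 and Gpc4 the fractions overlapped as well, with differences of 0.06, 0.27 and 0.43, and so they did for Gpc3 at −0.39 and Ext1 at −0.66.

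Genes of the same pathway outside these families were described with 8 lists. The table holds 85 such genes, of which 78 were tested, with 24 called higher (30.8%, beside 16.9% of all genes), 10 lower (12.8%, beside 13.9%) and 44 without a call, and their median log2 fold change was 0.30, beside −0.02 for all genes. With the mouse as a block 32 were called higher and 12 lower, 11 of them only in that fit, and 1 call, that of Layn, was lost. Chsy3 and Hpse2, called higher, had enough counts to test only through their CD249+ libraries, as had Ptprz1, called higher under the block. Hapln3, called lower under the block, had enough only through its CD249− libraries. For these genes entry to the test and the direction called are linked. Chondroitin and dermatan chain synthesis had the largest share of calls of the 8 lists. Of its 9 genes 6 were higher (66.7%, beside 16.9% of all genes) and 1 lower (11.1%, beside 13.9%). The median was 0.80, and the counts were the same under the block. Chpf, a chondroitin polymerizing factor, stood at 89.5 ± 22.4 and 337 ± 63.2 CPM (log2 fold change 1.91, SE 0.21, adjusted p = 0.000129), and Ust, a uronyl 2-sulfotransferase, at 13.7 ± 2.88 and 44.9 ± 5.79 CPM (1.72, SE 0.18, adjusted p = 9.68e-05). Among the chain initiators Csgalnact2 was called higher (log2 fold change 0.76) and Csgalnact1 lower (−0.83). In the linker region, the stretch that joins the chain to its core protein, 1 of 7 genes was called, the xylose phosphatase gene Pxylp1 (7.67 ± 2.10 and 22.3 ± 7.15 CPM, log2 fold change 1.54, adjusted p = 0.00281), and the list's median was 0.02. The 1 call is 14.3% of the list, beside 30.8% of all genes, and under the block Fam20b, the xylose kinase gene, was called higher too (log2 fold change 0.44, adjusted p = 0.123, and 0.0244 with the block). Of the epimerase and heparanase genes, Glce and Hpse had no call, and Hpse2, which encodes a heparanase relative without known enzyme activity, was higher from a very low level (0.285 ± 0.183 and 3.73 ± 1.10 CPM, log2 fold change 3.67, adjusted p = 0.00233).

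Sulfate supply was split, with 2 of 8 genes higher (25%, beside 16.9% of all genes) and 2 lower (25%, beside 13.9%; median 0.01). Papss2, a synthase of the sulfate donor PAPS, stood at 11.8 ± 5.09 CPM in CD249− and 52.9 ± 19.1 CPM in CD249+ cells (log2 fold change 2.16, SE 0.34, adjusted p = 0.00108), and Papss1 at 59.2 ± 12.3 and 65.8 ± 8.03 CPM with no call. Slc35b3, a Golgi carrier of PAPS, was lower (log2 fold change −0.68, adjusted p = 0.0101), though not without mouse 7 (adjusted p = 0.0589), mouse 8 (0.0585) or mouse 10 (0.0598). The carrier Slc35b2 was higher (log2 fold change 0.48, adjusted p = 0.0481). Of 12 genes of nucleotide sugar supply 3 were higher (25%, beside 16.9% of all genes) and none lower (beside 13.9%), with a median of 0.34. Calls in either direction were thus 25%, beside 30.8% of all genes. Ugdh, which makes UDP-glucuronate, had a log2 fold change of 0.74 (adjusted p = 0.00376). Ugp2, which makes UDP-glucose, had 0.43 (adjusted p = 0.00812, but 0.0563 without mouse 7 and 0.0544 without mouse 10). Under the block Gfpt2, an enzyme of hexosamine synthesis, was called higher as well (log2 fold change 0.69, adjusted p = 0.0801, and 0.00652 with the block). Lysosomal breakdown had 5 of 14 genes higher (35.7%, beside 16.9% of all genes) and none lower (median 0.34), led by the sulfatases Galns (9.65 ± 2.08 and 36.3 ± 8.88 CPM, log2 fold change 1.91, adjusted p = 0.000242) and Arsb (37.7 ± 7.41 and 91.0 ± 9.40 CPM, log2 fold change 1.27, adjusted p = 0.000246). Under the block 8 were higher, with Ids (adjusted p = 0.0418), Naglu (0.0487) and Hexa (0.0282) added.

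Hyaluronan turnover and binding was the 1 list with a negative median (−0.72), with 5 of 14 tested genes lower (35.7%, beside 13.9% of all genes) and 1 higher (7.14%, beside 16.9%). Lyve1, a hyaluronan receptor of lymphatic and some blood vessel endothelium and of macrophages, stood at 628 ± 100.8 CPM in CD249− and 189 ± 85.8 CPM in CD249+ cells (log2 fold change −1.74, SE 0.28, adjusted p = 0.00126). Hyal2, a hyaluronidase, stood at 347 ± 61.8 and 136 ± 39.7 CPM (log2 fold change −1.36, SE 0.20, adjusted p = 0.000821). Tmem2, Stab1 and Layn were the other genes called lower, Layn not with the mouse as a block (adjusted p = 0.0557), and Habp4 was the 1 called higher (log2 fold change 0.49). Under the block 6 were lower and 3 higher: Hyal1 (adjusted p = 0.0177) and Hapln3 (0.0325) joined those lower, and the hyaluronan receptor gene Cd44 (0.0309) and Tnfaip6 (0.000438) those higher. The median of the 15 endothelial markers, all lower, was −1.45, and the part of endothelial RNA in this list was not tested. Other proteoglycan core proteins had 5 of 11 tested genes higher (45.5%, beside 16.9% of all genes) and 2 lower (18.2%, beside 13.9%), with a median of 1.498. Cspg4, the core protein NG2, which is itself among the pericyte markers used here, stood at 9.43 ± 3.66 and 44.6 ± 6.905 CPM (log2 fold change 2.24, SE 0.26, adjusted p = 0.000188). The basement membrane cores Hspg2 (log2 fold change 1.498) and Col18a1 (1.97) were higher. Agrn, another basement membrane core, stood at 150 ± 26.7 and 116 ± 16.6 CPM and was lower in CD249+ cells of 4 of 4 mice (log2 fold change −0.37, adjusted p = 0.0803, and 0.00352 with the block, which called it lower). Ptprz1 was called higher under the block alone (adjusted p = 0.0359). Srgn, the granule proteoglycan of blood cells and endothelium, was lower, at 274 ± 27.3 and 98.4 ± 25.2 CPM (log2 fold change −1.48, SE 0.18, adjusted p = 0.00022).

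**Figure D5:**
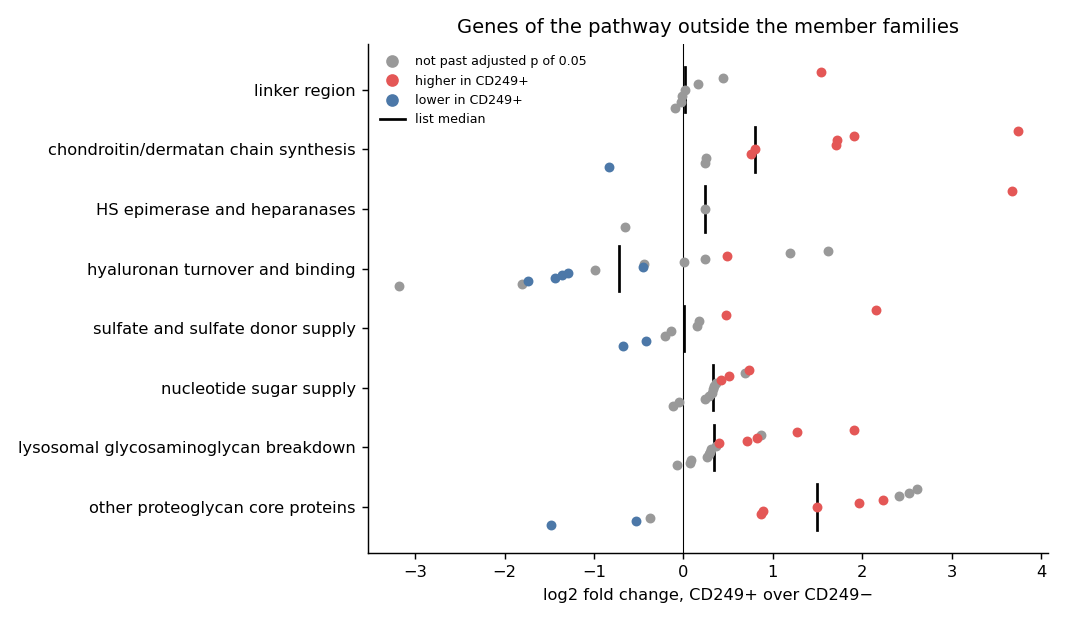
Log2 fold change of CD249+ over CD249− cells for 78 tested genes of 8 lists outside the member families, 1 point a gene (red, called higher; blue, called lower; grey, no call), with the list's median as a black bar. The median is 0.80 for chondroitin and dermatan chain synthesis, 1.498 for other core proteins and −0.72 for hyaluronan turnover and binding.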

How the data were processed

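RNA of 8 libraries, 4 CD249− and 4 CD249+, was primed with oligo(dT), amplified with SMART-Seq V4 from 10 ng, made into Nextera XT libraries and sequenced as single reads of 75 bp, per the labels' protocols. Such libraries do not mark strand and carry no molecular identifiers. The authors deposited expected counts (estimated counts that need not be whole) per gene, of which 12% were not whole; depth was 23011383 to 31906414 a library. Tools listed in the submitters' processing notes, with no step assigned, are STAR (2.6.1), RSEM (1.2.28), bcl2fastq (2.20), R (3.6.3) and DESeq2 (1.26.0). The build they list is GRCh38, a human one, although the table's identifiers are of mouse genes; the mouse build and annotation used for counting are not given in the sources used here. Coordinates, exon lengths and overlaps come from GENCODE M21 on GRCm38, in which 98.99% of identifiers were found, and promoter windows from RefSeq on GRCm38.p6. The 92 spike-in entries, all 0, were left out.

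Expected counts were rounded to whole numbers. Groups were taken from the titles; the Ctrl and LIF column names match the sample descriptions. CPM were scaled by TMM in edgeR 4.0.16 (R 4.3.3), genes were kept by filterByExpr with a minimum count of 10, and the group was the only term of the quasi-likelihood test, 2-sided, with calls at an adjusted p of 0.05. The test, DESeq2 1.42.0 and limma-voom (limma 3.58.1) were tested on simulated data first. Levels were compared between genes only as CPM per kb of exon. Fractions of a mouse come from 1 lung: deviations from the group means correlated at 0.145 to 0.301 within a mouse and −0.221 to 0.0546 between mice, so the fit with the mouse as a block is given beside the members, pathway genes and marker lists whose calls it changed. Alternatives were 2 other scalings, 2 filters, DESeq2, limma-voom, the block, leaving out each library or mouse, and 2 pairs of mice.

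The members and lists were chosen with earlier results of these data known. Named genes are, in each of 9 role groups, up to 4 called members with the lowest p and the member with the highest level per kb, in each of 8 pathway lists up to 2 called genes, and Enpep and Pecam1. Other members are given by value, and the other pathway genes named were picked after their values were seen.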

Additional observations from a re-analysis of the deposited data

Results flagged for a closer look

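Each of the 37 tested members was checked in each fraction, 74 groups of 4 libraries, for a library whose gap to the others was above Dixon's 95% critical value for its share of the range. Chance gives about 1 in 20 such groups, and 3 were found, all in libraries of mouse 2. Extl2 was low in the CD249+ library of mouse 2, at 23.2 CPM beside 27.95 to 28.7 CPM in the other CD249+ libraries. Chst15 was high in the CD249− library of mouse 2, at 147 CPM beside 102 to 104 CPM. Sdc3 was high in the CD249+ library of mouse 2, at 232 CPM beside 157 to 168 CPM.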

How the results depend on the processing

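The results were recomputed under 21 alternatives of scaling, filter, tool, block and samples. Of the 21 called members, 6 kept their call wherever they were tested (Chst8, Ext1, Gpc1, Hs3st1, Sdc2 and Sdc4), 15 lost it in at least 1 setting, and none changed direction. Members called numbered 22 with DESeq2 size factors, 19 with library size alone, 21 without a filter on low counts, 16 (3 lower) with a minimum mean of 10 CPM, where 28 members were tested, 25 with DESeq2, 20 with limma-voom and 25 with the mouse as a replicate block, which besides the 6 members named changed no member's call and gave 44 pathway genes called in place of 34. Of all genes, those settings called, in the same order, 4441, 4795, 4274, 3876, 5210, 4541 and 5298. The genes tested were 18552 without the filter, 9964 with the minimum of 10 CPM and 14524 in the others. Library size alone gave a median log2 fold change of −0.12 over all genes. Leaving out 1 library or mouse gave 14 to 25 members called, the lowest without mouse 7, with 11 to 18 higher and 2 to 7 lower, and 2978 to 4458 of all genes, the lowest without mouse 8. Leaving out 1 mouse gave 3 to 5 members higher relative to the collagens, beside 2.37% to 2.99% of all genes. Mice 7 and 8 alone gave 19 members and 3028 of all genes. Mice 2 and 10 alone gave 6 (5 higher and 1 lower), 668 of all genes and 2 pathway genes, with 4 libraries in the fit. Members without a call that changed sign were Chst12 (−0.073 with library size alone, −0.11 in mice 2 and 10 alone, −0.069 to 0.125 with 1 library or mouse left out), Sulf2 (0.22 in mice 7 and 8 alone, −0.28 to 0.13), Hs3st3b1 (−0.10 in mice 7 and 8 alone, −0.10 to 0.47), Ndst2 (−0.204 to 0.047), and, in mice 2 and 10 alone, Has2 (−0.012) and Gpc6 (−0.093). The cause of these changes was not tested. The values of Hs6st3, Chst5 and Chst4 rest on few counts, and the 12 members with too few counts to test have no fold change from the fit.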
